A study of Mus musculus with 3 samples.

Results

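The 9 Hedgehog pathway genes described here are Shh, Ptch1, Smo, Gli1, Gli2, Gli3, Sufu, Hhip and Boc, and the data are the Atoh7 binding peaks that lie at them in the mouse retina at embryonic day 14. A peak was counted for a gene when its midpoint lay inside the RefSeq gene body or within 100 kb of either end. By that rule 11 of the 3668 deposited peaks belonged to these genes, and they fell at 4 of the 9: Sufu, Ptch1, Gli1 and Gli2. The libraries came from retina of C57Bl6/J mice, an inbred strain, and were made by CUT&RUN, which uses a nuclease tethered to an antibody to release the DNA beside the antibody's target protein. The antibody was against Atoh7, a basic helix-loop-helix transcription factor of neurogenic progenitors, in 2 libraries, and IgG, which has no specific target, was used in 1. The labels give no other treatment or genotype, and do not say whether the libraries came from separate animals. The deposited values are 1 peak list on the mm10 build with no value per library, so library depth is unknown, replicate spread and IgG background could not be measured, and no test between samples exists. The tissue is whole retina, and the list does not tell in which of its cells a peak arose.

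Sonic hedgehog is a secreted ligand that retinal ganglion cells, the output neurons of the eye, send to the progenitors around them, where it promotes proliferation and limits the production of further ganglion cells. Without ligand, the receptor Ptch1 holds the membrane protein Smo inactive, and Sufu retains the Gli transcription factors and favours their processing into repressors. Ligand binding frees Smo to act in the primary cilium, Gli2 and Gli3 are released from Sufu, and Gli1, Ptch1 and Hhip are switched on as direct responses. Production of most ganglion cells depends on Atoh7, so the pathway runs from cells of the Atoh7 lineage back to progenitors, and the comparison asked here is which of its steps carry Atoh7 peaks: ligand, receptors or Gli factors.

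None of the 11 peaks lay within 100 kb of the ligand gene Shh, and 65.1% of all protein-coding genes likewise had 0. The receptor and membrane group had 2 peaks, both at Ptch1, and the cytoplasmic regulator Sufu had 5. The Gli factors had 4, with 2 at Gli1, 2 at Gli2 and 0 at Gli3. At least 1 peak was thus found at 4 of 9 genes (44.4%, 95% Wilson interval 18.9 to 73.3%, for counting of genes only), against 34.9% of all 21631 protein-coding genes. That share lies near the background, and no excess of the 9 genes as a list is read from it. The median number of peaks was 0 per gene in the 9 genes and 0 over all protein-coding genes. Windows differ in length, and per Mb of window the 9 genes had 4.14 peaks, against 2.25 over all protein-coding genes. Sufu gave 5 of the 11 peaks, and without it the other 8 genes had 2.54 per Mb. Within 10 kb 3 of 9 genes had a peak, against 12.4% of protein-coding genes, within 50 kb 4 of 9, against 24.4%, and within 250 kb 5 of 9, against 54.2%.

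**Figure D1:**
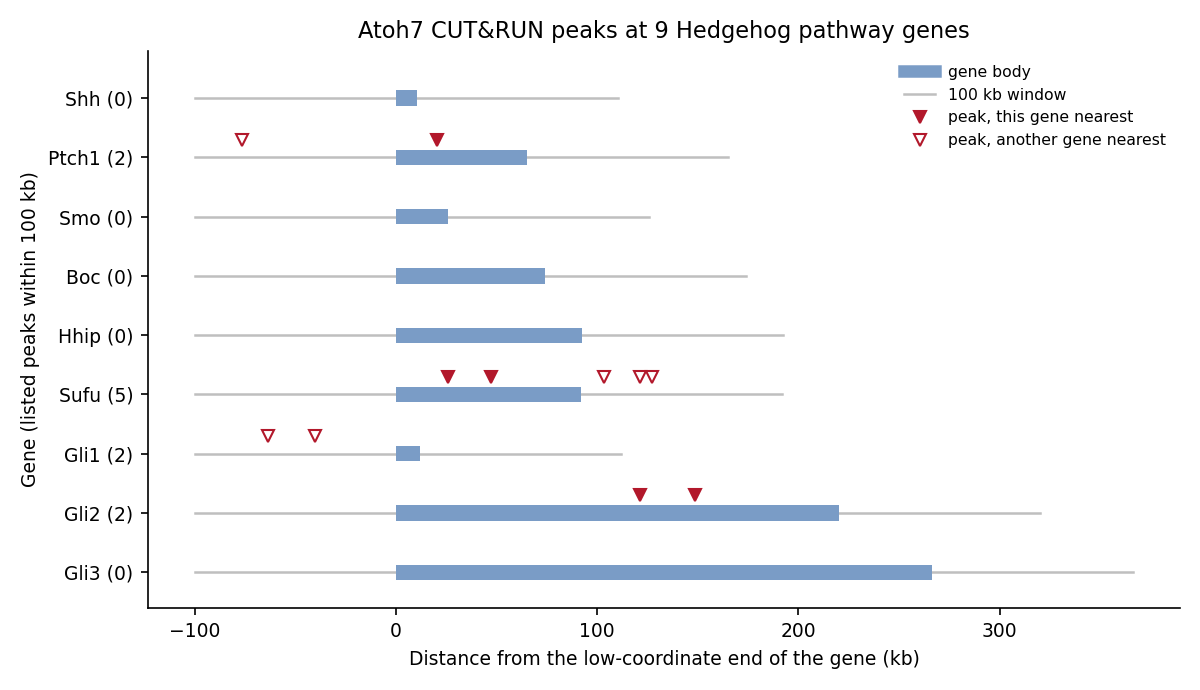
Position of each listed peak (triangles) along 9 Hedgehog pathway genes, in kb from the end of the gene with the lower coordinate; blue bars are gene bodies, grey lines the windows reaching 100 kb to either side, and the number after each name is its peak count. Filled triangles are peaks for which the named gene is the nearest protein-coding gene, open triangles those with another gene nearer; all 5 filled triangles lie inside the bodies of Ptch1, Sufu and Gli2, and the triangles at Gli1 are open.

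Sufu, the inhibitor that binds Gli proteins in the cytoplasm, had the most peaks of the 9 genes. It lies on chromosome 19 from 46396896 to 46488804 and is transcribed toward higher coordinates. The first peak, at 46422302 to 46423000, was 699 bp wide and lay inside the gene, 25.8 kb downstream of its start. The second, at 46444138 to 46444397, was 260 bp wide and also lay inside the gene, 47.4 kb from the start. The other 3 lay beyond the far end of Sufu and closer to Trim8, which encodes a ubiquitin ligase. They were at 46499857 to 46500223, 46517894 to 46518849 and 46523669 to 46524071, and their midpoints were 11.2, 29.6 and 35.1 kb from Sufu against 1.61, 1.57 and 7.07 kb from Trim8. The middle one of these was 956 bp wide, and only 0.981% of all listed peaks were as wide or wider. Trim8 itself (46501648 to 46516805) thus had a peak just outside each end and none inside. The next gene, Arl3 (46531109 to 46573182), a small GTPase that releases lipid-modified proteins in cilia, lay 7.24 kb from the last peak.

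The midpoints of the 5 peaks spanned 101 kb. Across the list, 5 neighbouring peaks spanned a median of 1.83 Mb, and 1.81% of such stretches were as short as the one at Sufu or shorter. The 5 at Sufu were picked because they share its window of 292 kb, which limited their span in advance. The 1.81% therefore describes the list and does not measure how unusual the Sufu stretch is. A count of at least 5 within 100 kb was found for 0.601% of protein-coding genes. The Sufu window also touched 9 other protein-coding genes, whereas those of Hhip, Gli2 and Gli3 touched 0, and the part that gene density plays in these counts was not tested. With a peak given only to its nearest protein-coding gene, Sufu kept 2. None of the 5 lay at the Sufu start site. The 250 bases before it (chr19:46396646-46396895, plus strand, RefSeq sequence of GRCm38.p6) are shown because they held 1 E-box, the CANNTG hexamer that basic helix-loop-helix proteins recognise, printed in capitals, with the nearest peak 25.8 kb away. At least 1 CANNTG was found in 66.2% of the same upstream stretches of all promoters.
Sufu: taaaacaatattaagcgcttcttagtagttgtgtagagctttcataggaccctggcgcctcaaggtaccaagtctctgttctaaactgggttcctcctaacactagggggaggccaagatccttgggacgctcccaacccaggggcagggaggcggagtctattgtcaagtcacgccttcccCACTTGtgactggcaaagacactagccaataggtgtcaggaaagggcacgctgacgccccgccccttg

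Ptch1, the receptor that holds Smo inactive and is itself a transcriptional target of the pathway, had 2 peaks. The gene lies on chromosome 13 from 63508328 to 63573460, and its RefSeq start used here is at 63565735, with transcription toward lower coordinates. A peak of 264 bp at 63528308 to 63528571 lay inside the gene, 37.3 kb downstream of that start and 20.1 kb from the far end of the gene. The other, 529 bp wide at 63431185 to 63431713, lay 76.9 kb beyond the far end and inside Fancc, a DNA repair gene, 296 bp downstream of a Fancc start site at 63431745. That start site is internal to Fancc, whose nearest annotated end was 65.8 kb from the peak. The other genes of the receptor group had none. Smo, the signal transducer that Ptch1 holds back (chromosome 6, 29735497 to 29761366), had its nearest peak 408 kb away. Boc, a co-receptor for the ligand that also marks ganglion cells with uncrossed axons (chromosome 16, 44485045 to 44558870), had its nearest peak 600 kb away, inside Atg3, an autophagy gene. Hhip, a membrane protein that binds and sequesters the ligand (chromosome 8, 79965850 to 80058060), had its nearest peak 1.28 Mb away.

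Among the Gli factors, Gli2 had peaks inside its body and no other protein-coding gene in its window. Gli2, which acts mainly as an activator, lies on chromosome 1 from 118834061 to 119054405 and is transcribed toward lower coordinates. Its peaks, at 118955091 to 118955305 (215 bp) and 118982621 to 118982952 (332 bp), were 98.4 and 70.8 kb downstream of the RefSeq start. Both were narrower than the median listed peak of 381 bp, and 89.3% of all listed peaks were as wide as the first or wider. The first also lay in the long noncoding RNA gene Gm51642 and 898 bp from the end of the microRNA gene Mir6346, both inside Gli2. The next protein-coding gene, Tfcp2l1, which encodes a transcription factor, was 270 kb from the first peak. At least 2 peaks inside the gene body, as at Gli2 and Sufu, were found for 1.29% of protein-coding genes. These 2 genes are 220 and 91.9 kb long, against a median of 17.3 kb over all protein-coding genes. That share takes no account of length.

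Gli1, an activator whose own transcription reports pathway activity (chromosome 10, 127329882 to 127341579), had 2 peaks in its window and neither was nearest to it. The peak at 127266218 to 127266571 (354 bp) was 63.5 kb from Gli1 and lay where Dctn2 and Kif5a overlap end to end. Its midpoint was inside Dctn2, which encodes a dynactin subunit, and 46.5 bp from Kif5a, which encodes a neuronal kinesin of axonal transport. The peak at 127289276 to 127289577 (302 bp) was 40.5 kb from Gli1, inside Mbd6, which encodes a methyl-CpG-binding domain protein, and 1.37 kb from the stress-response gene Ddit3. Its midpoint was 408 bp upstream of an Mbd6 start site at 127289018. These peaks lay close to annotated starts of other genes, in a window that touched 9 other protein-coding genes. The 250 bases before the Dctn2 start (chr10:127266012-127266261, plus strand, RefSeq sequence of GRCm38.p6) show how the peak met that start: the last 44, in capitals, lie inside the peak, and the stretch held no CANNTG.
Dctn2: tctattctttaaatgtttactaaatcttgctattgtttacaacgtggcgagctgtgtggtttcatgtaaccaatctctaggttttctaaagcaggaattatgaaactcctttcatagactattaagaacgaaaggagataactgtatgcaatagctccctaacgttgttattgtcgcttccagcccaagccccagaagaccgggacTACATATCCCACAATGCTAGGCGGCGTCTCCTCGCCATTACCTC

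Gli3, which acts mainly as a repressor and is the longest of the 9 genes at 266 kb (chromosome 13, 15463723 to 15730026), was the farthest from any peak. The nearest was 1.72 Mb away, inside Lyst, a lysosomal trafficking gene, and 7.99% of protein-coding genes were as far from a peak or farther. Before the Gli3 start lay CATCTG, letters of a kind recognised by proneural factors. CATCTG or CAGATG was found in 17.1% of all promoter windows, so its presence here is not read as unusual. The 250 upstream bases are shown (chr13:15463473-15463722, plus strand, RefSeq sequence of GRCm38.p6), with the single CANNTG in capitals. At least 1 CANNTG was found in 66.2% of all such upstream stretches.
Gli3: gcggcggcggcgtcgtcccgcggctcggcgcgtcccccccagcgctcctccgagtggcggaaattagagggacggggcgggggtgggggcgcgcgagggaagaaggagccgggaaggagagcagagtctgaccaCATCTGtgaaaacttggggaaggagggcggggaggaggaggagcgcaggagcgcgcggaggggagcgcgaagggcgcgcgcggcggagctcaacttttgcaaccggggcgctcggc

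Of the 9 genes, 6 had a promoter window in the RefSeq sequence table (Ptch1, Smo, Hhip, Sufu, Gli2 and Gli3), taken as 250 bases before to 50 after the start. None of the 6 overlapped a peak, and only 898 of all 32619 windows did, so no lack at these genes is read from it. CANNTG, which reads the same on both strands as a pattern, was found in 2 of the 6, Sufu and Gli3, and in 72.3% of all 32619 windows. The form CAGCTG was found in 0 of 6 and in 16.4% of all windows. The form CAGATG, or CATCTG on the other strand, was found in the Gli3 window, 1 of 6, and in 17.1% of all windows. Both forms are also counted within CANNTG. The Gli recognition letters GACCACCCA, or TGGGTGGTC on the other strand, were found in 0 of 6 and in 0.254% of all windows. Peak sequences away from promoters were not read, so these counts describe start sites and not the peaks themselves.

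The ligand gene Shh (chromosome 5, 28456840 to 28467101) stood in a long stretch without peaks. On the lower-coordinate side the nearest peak, at 28263759 to 28264191, was 193 kb from Shh and 18.2 kb from Cnpy1. On the higher-coordinate side the next peak was 2.58 Mb away, so that 2.78 Mb separated the neighbouring peaks. Of all gaps between neighbouring peaks, each counted once, 5.35% were as long or longer. That share does not measure how unusual the gap is for a gene. Shh has 0 peaks in its window of 210 kb, so shorter gaps could not have held it. This gap holds Lmbr1 (29229802 to 29378421), known for the intron that carries the limb enhancer of Shh, 763 kb from Shh and with 0 peaks inside. Lmbr1 was chosen after its values were seen. As a distance to a peak, 193 kb is ordinary: 51.8% of protein-coding genes were as far or farther, against 34.4% for the distance of Smo, 25.6% for that of Boc and 11.5% for that of Hhip.

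**Figure D2:**
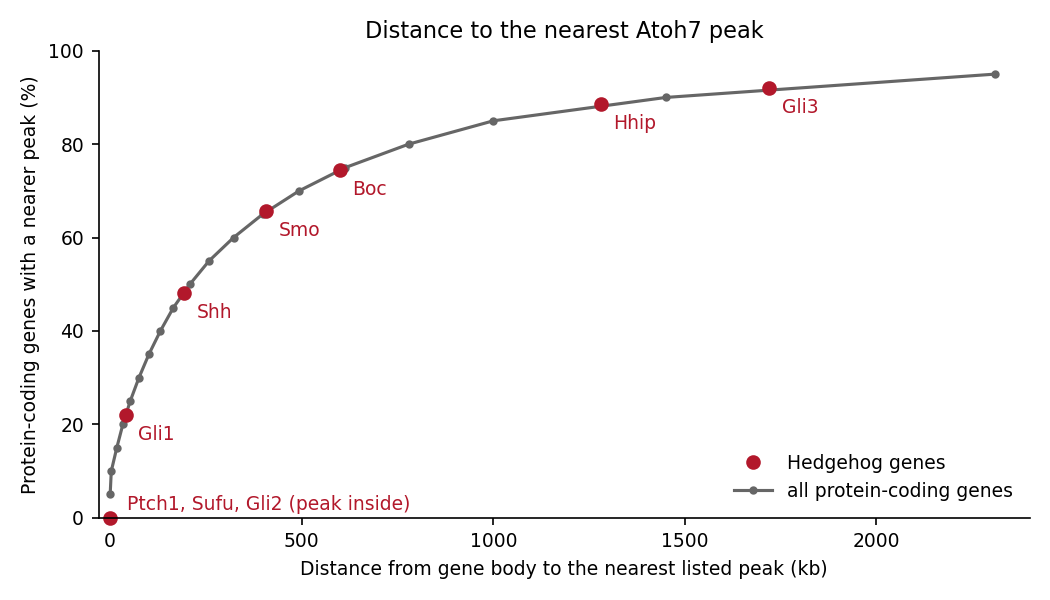
Distance in kb from a gene body to its nearest listed peak (horizontal axis) against the percentage of protein-coding genes with a nearer peak (vertical axis); the grey curve gives all protein-coding genes at every 5th percentile, and red points the 9 Hedgehog pathway genes. Ptch1, Sufu and Gli2 sit at 0, Shh at 193 kb lies near the middle of the curve, and Gli3 at 1.72 Mb lies at its far end.

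Peak names carry running numbers that rise along every chromosome to 7185, and 51.1% of the numbers are present in the list. A number absent between neighbouring peaks is therefore a place where a numbered peak is not in the list. The peaks on either side of Shh are numbers 4998 and 4999, and those on either side of Boc are numbers 2543 and 2544, so 0 numbers are absent across the gaps of 2.78 and 2.08 Mb that hold these genes. Across the gap of 1.31 Mb around Smo and that of 2.99 Mb around Hhip, 5 numbers each are absent, and across the 4.57 Mb around Gli3 1 is absent. An absent number has no position of its own, so it cannot be placed inside or outside a gene's window. By the same measure, between the peaks that flank each window, 1 number is absent at Ptch1, 2 at Sufu, 1 at Gli1 and 1 at Gli2, and none of these falls between the listed peaks of the gene.

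The widths and positions of the 11 peaks are given beside those of the list, with no test of likeness made. The 11 were picked for lying within 100 kb of a gene. Of all listed peaks, 3194 lay that near a protein-coding gene, so the position shares were partly set by that choice. Their widths were 215 to 956 bp with a median of 354 bp, against a median of 381 bp over all 3668 peaks. By midpoint 2 lay within 1 kb of the end of an annotated gene of any kind (18.2%), 6 elsewhere in a gene body (54.5%) and 3 between genes (27.3%), against 26.5%, 46.2% and 27.3% of the 3662 listed peaks on the autosomes and X. Those 2 were the Dctn2 and Kif5a peak and the Gli2 peak beside Mir6346. None of the 9 genes had a peak within 1 kb of its own start or end, while 4.3% of all protein-coding genes did. The peaks closest to a gene's own end were 11.2 kb away at Sufu, 20.1 kb at Ptch1, 40.5 kb at Gli1 and 71.6 kb at Gli2.

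A peak inside the gene body was found at 3 of the 9 genes, Ptch1, Sufu and Gli2, against 7.17% of all protein-coding genes, and the same 3 genes were the nearest protein-coding gene to a peak, against 11.1%. The 9 genes are long, with a median of 73.8 kb against 17.3 kb over all protein-coding genes, and neither count takes length into account. Per Mb of gene body they had 5.83 peaks, against 1.91 over all protein-coding genes, and without Sufu 3.92. These rates rest on 5 and 3 peaks. The part that gene length plays in these counts was not tested.

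**Figure D3:**
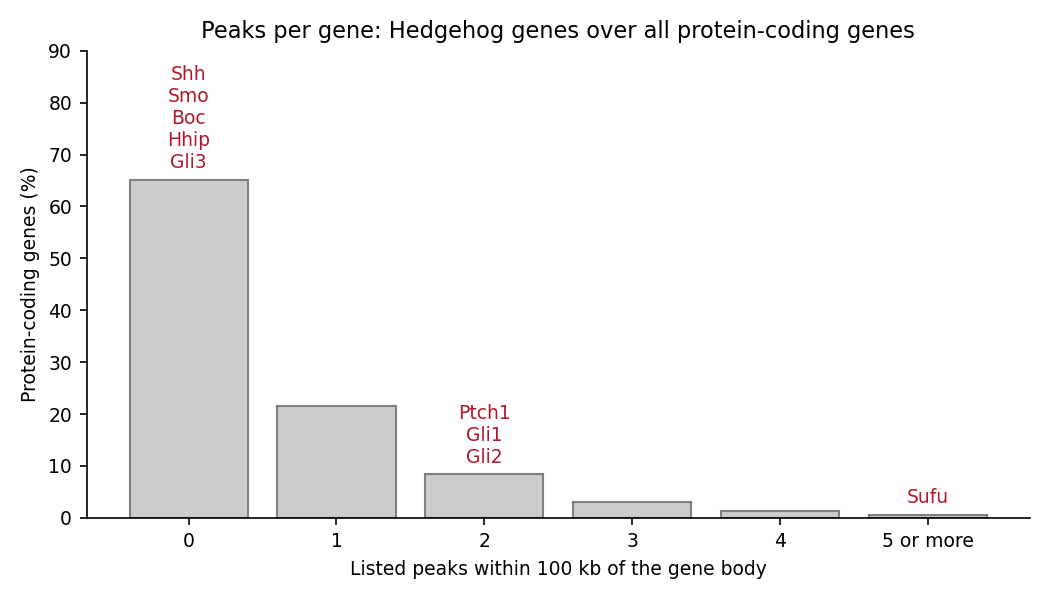
Percentage of all protein-coding genes (grey bars) with each number of listed peaks within 100 kb of the gene body, with the 9 Hedgehog pathway genes named in red above the bar of their own count. Shh, Smo, Boc, Hhip and Gli3 stand over 0, the commonest count at 65.1% of genes, Ptch1, Gli1 and Gli2 over 2, and Sufu over 5 or more.

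The rest of the pathway was described with 38 further genes. At least 1 peak lay within 100 kb of 17 of them (44.7%, 95% Wilson interval 30.1 to 60.3%), against 34.9% of all protein-coding genes, a share near the background. Per Mb of window they had 2.62 peaks, against 2.25. Among genes of ligand processing and release, 5 of 8 had a peak (62.5%, 95% Wilson interval 30.6 to 86.3%). Of the 8, 2 were the nearest protein-coding gene to a peak, Hhat and Disp1, against 11.1% of all protein-coding genes. Hhat, the acyltransferase that adds palmitate to the ligand, had 3, of which 1 was inside the gene and the others were 52.2 and 63.6 kb away, nearer to Sertad4. Disp1, which exports the lipid-modified ligand, had 2, at 10.7 kb and, inside Aida, at 75.6 kb, and its relative Disp2 had 1 at 17.2 kb, inside Ccdc9b. Dhh, the desert hedgehog ligand, had 2 at 87.4 and 88.6 kb, both nearer to the tubulin gene Tuba1a, and Scube3, a relative of the secreted Scube2 that helps the ligand leave the cell, had 2 at 49.4 and 61.3 kb, inside Def6 and 0.117 kb from Tcp11.

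Among the further receptors and co-receptors, Cdon and Gas1, which act beside Boc as co-receptors, had their nearest peaks 1.43 Mb and 425 kb away. The co-receptors Boc, Cdon and Gas1 thus had 0 peaks within 100 kb, as did 65.1% of all protein-coding genes, and no lack particular to co-receptors is read from this.

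Of 19 genes of the cilium and of signal transduction, 8 had a peak (42.1%, against 34.9% of all protein-coding genes). Of the 19, 3 were the nearest protein-coding gene to a peak, Spop, Cul3 and Stk36, against 11.1% of all protein-coding genes. Spop, an adaptor that directs Gli proteins to the ubiquitin ligase scaffold Cul3, had 3, of which 1 was inside the gene 407 bp from its start and the others were nearer to Slc35b1 and Nxph3. Cul3 had 1, centred 258 bp outside its start. Btrc, which recognises phosphorylated Gli3 for processing, had 2 at 27.1 and 63.0 kb, inside Poll and Fbxw4, and the kinase gene Csnk1a1 had 1 at 17.8 kb, inside Arhgef37. Iqce, a ciliary gene, had 1 at 79.3 kb, nearer to Grifin. The ciliary motor gene Kif3a had 1 at 26.5 kb, inside Septin8, and the ciliary GTPase gene Arl13b had 1 at 6.47 kb, inside Nsun3. Stk36, the mouse relative of the fly Hedgehog kinase fused, was named after its values were seen: its peak covered the start site, with the midpoint 26 bp upstream of it.

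The sequences before the starts of Stk36 and Cul3 are shown because, of the 38 further genes, these were the ones whose window in the promoter table overlapped a peak. For Stk36 (chr1:74601205-74601454, plus strand) all 250 bases lie inside the peak, and the capitals mark the single CANNTG, which is CAGCTG. For Cul3 (chr1:80340691-80340940, minus strand) the capitals mark the 149 bases inside the peak, and the stretch held no CANNTG. Both are RefSeq sequences of GRCm38.p6. Of all such upstream stretches of 250 bases, 66.2% held at least 1 CANNTG. The full promoter windows add 50 bases after the start, and that of Stk36 held 2 CANNTG. In full windows, CANNTG of any form was found in 67.1% of the 898 promoter windows that overlap a listed peak, against 72.3% of all windows. CAGCTG was found in 28.0% against 16.4%, and the CAGATG form in 15.7% against 17.1%, with no test made.
Stk36: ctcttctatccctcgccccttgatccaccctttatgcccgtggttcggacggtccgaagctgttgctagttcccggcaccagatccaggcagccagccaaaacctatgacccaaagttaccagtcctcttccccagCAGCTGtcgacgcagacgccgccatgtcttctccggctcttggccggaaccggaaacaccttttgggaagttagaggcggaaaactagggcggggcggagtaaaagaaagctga
Cul3: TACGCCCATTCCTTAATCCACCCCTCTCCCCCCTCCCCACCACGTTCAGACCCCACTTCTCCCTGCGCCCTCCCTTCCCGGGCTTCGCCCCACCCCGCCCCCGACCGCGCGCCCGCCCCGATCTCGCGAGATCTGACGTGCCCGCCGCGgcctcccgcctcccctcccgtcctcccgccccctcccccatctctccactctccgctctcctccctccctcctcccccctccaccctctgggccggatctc

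Of 6 genes known to respond to the pathway, 3 had a peak (95% Wilson interval 18.8 to 81.2%), a share near the 34.9% of all protein-coding genes. Hes1, a repressor that hedgehog signalling can induce in retinal progenitors, had 1 at 45.0 kb and was its nearest protein-coding gene. Bcl2, a survival gene, had 2, of which 1 was inside it and 1 was 82.5 kb away. Mycn, a growth regulator named after its values were seen, had 1 at 31.3 kb. The cyclin genes Ccnd1 and Ccnd2 had none within 100 kb, their nearest peaks being 234 and 549 kb away.

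The Notch pathway, another route by which new neurons signal to progenitors, served as a comparison. All 5 Notch ligand genes had a peak within 100 kb (95% Wilson interval 56.6 to 100%), against 34.9% of all protein-coding genes. The most were at Dll1, which had 5. Shh had 0, as did 65.1% of protein-coding genes, and 1 gene cannot stand for a group of ligands. Among Notch receptors and their nuclear complex 5 of 8 had a peak (62.5%, 95% Wilson interval 30.6 to 86.3%, which includes the 34.9% of all protein-coding genes), the most at Maml3 and Rbpj with 5 each. Per Mb of window the 9 Hedgehog genes had 4.14 peaks, against 12.9 for Notch ligands, 5.31 for Notch receptors and nuclear complex and 2.25 over all protein-coding genes. The difference between the lists was not tested.

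**Figure D4:**
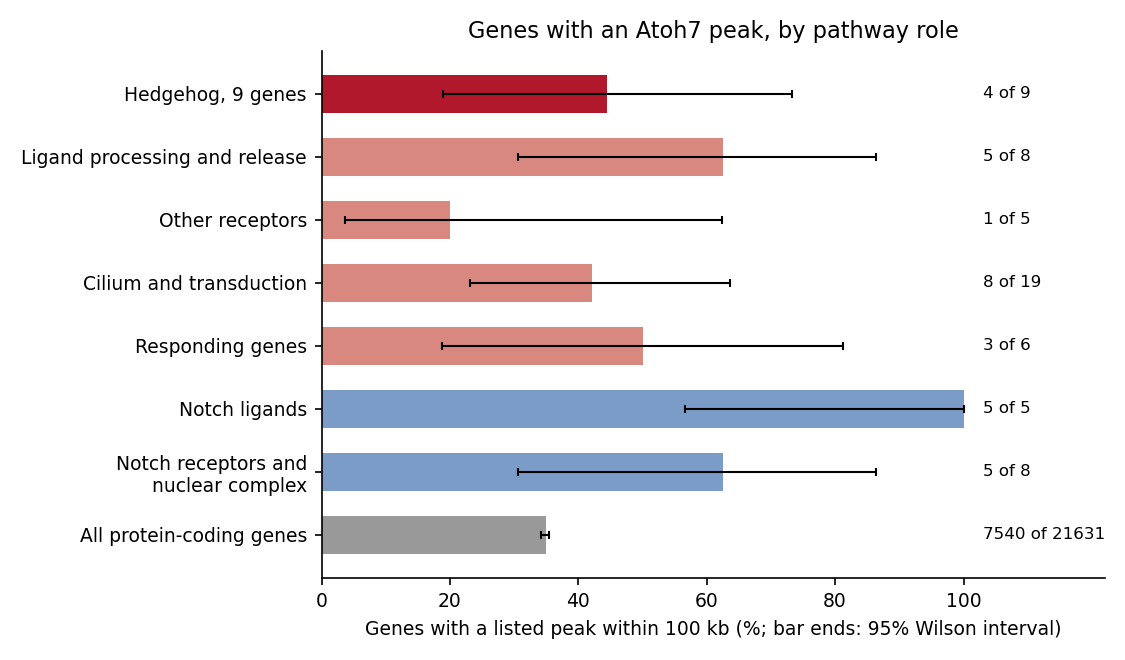
Percentage of genes with at least 1 listed peak within 100 kb of the gene body, for the 9 Hedgehog pathway genes (dark red), 4 further groups of the pathway (light red), 2 groups of Notch pathway genes (blue) and all protein-coding genes (grey); lines are 95% Wilson intervals for counting of genes only, and the counts stand at the right. The 9 Hedgehog genes at 44.4% have an interval that includes the 34.9% of all protein-coding genes, while all 5 Notch ligand genes have a peak.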

How the data were processed

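The deposited table gives the position, width and name of 3668 peaks, per the file headers, and holds no score, fold or value per library. The values are therefore peak coordinates and other descriptive columns that the authors deposited, in bp. The submitters' processing notes name MACS2 2.2.7.1, bedtools, Bowtie2 2.3.5, Picard 2.0.1 and SAMtools, with the mm10 build. The order, settings and step that chose the listed peaks are not given in the sources used here. All names begin with Atoh7_R1, and whether the replicate 2 and IgG libraries entered the list is not given in those sources either. Library depth is unknown, and intervals cover counting of genes only.

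Genes came from RefSeq for GRCm38.p6, the assembly that mm10 names (21631 protein-coding genes on chromosomes 1 to 19 and X), matched by symbol. All 9 members and 51 further genes were found. Exon positions were not used here, so a gene body is not divided into exon and intron. Start sites and strand came from the RefSeq promoter table. The members and lists were chosen with earlier results of these data known. No chance test was made, and no p-value is given. Named genes were the 9 members, genes at their peaks and up to 15 wider pathway genes with a peak, by peak count. A further gene that this rule names is not reported here. Motifs were counted only in promoter windows, since no genome was used here, so the planned count within peaks was not run. Peak width replaced a score in choosing the stricter set of peaks. Counting was tested on simulated peaks. The scripts ran on scipy 1.17.1, pandas 2.3.3, matplotlib 3.10.9 and numpy 2.4.6 under Python 3.11.15.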

Additional observations from a re-analysis of the deposited data

How the results depend on the processing

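The same 4 genes, Ptch1, Sufu, Gli1 and Gli2, had a peak within 50 kb and with any overlap of 1 bp, against 24.4% and 34.9% of protein-coding genes. Gli1 was without a peak within 10 kb and by nearest gene, which left 3 members each and 5 of the 11 member peaks. Of protein-coding genes, 12.4% and 11.1% had a peak by these 2 settings. With the wider 50% of peaks 2 members, Ptch1 and Sufu, kept 4 peaks, where 20.0% of protein-coding genes had one. Within 250 kb, chosen after the data were seen, Shh joined with 1 peak for 17 member peaks in all, against 54.2% of protein-coding genes. Leaving out Sufu, also chosen afterwards, left 3 members and 6 peaks. The wider pathway had 17 genes with a peak within 100 kb, where 34.9% of protein-coding genes had one. This became 6 within 10 kb, 8 by nearest gene and 10 with the wider peaks, against 12.4%, 11.1% and 20.0% of protein-coding genes. The 10 Notch genes became 8 to 11, with 8 for the wider peaks, against 20.0%, and 11 within 250 kb, against 54.2%. Gene ends within 5 kb held 5 of the 11 member peaks and left 1 between genes, against 43.7% and 21.4% of listed peaks on the autosomes and X. Ends of protein-coding genes only held 1, against 21.7%. Smo, Boc, Hhip and Gli3 had 0 peaks under all of these settings. Their nearest peaks lay 408 kb away or farther, so no window used here could reach them. These counts were therefore fixed in advance and do not show stability. Within 100 kb, 65.1% of all protein-coding genes had 0 peaks. No paired analysis was possible because the list gives no value per library. Width is not a measure of occupancy, and depth per library is unknown, so a gene without a listed peak is not shown to be unbound.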
